A study of Mus musculus with 27 samples.

Results

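The colon of Il10 knockout mice in conventional housing was compared with that of Il10 knockout mice in specific pathogen free (SPF) housing at 9 weeks of age, on 3 arrays against 3 of the 27 arrays in the series. All 18193 genes with a probe set of 1 gene symbol were compared, each through its brightest probe set. The remaining arrays held the same knockouts at 7 and 12 weeks and conventionally housed wild types at all 3 ages, in groups of 3. The conventional knockouts carry the code CC in their sample names, and since the other codes name SPF and wild type, CC was taken as conventional. Each array read total RNA from the full thickness of the colon wall. The labels state no strain, sex, knockout allele or pooling of animals. Both knockout groups are labelled Il10-/-, and no wild types in SPF housing are among the samples used here, so the wild types below share the housing of the conventional knockouts but not that of the SPF knockouts. The submitters picked the 3 samples of each group by colon length and damage, so they are not a random draw from each colony. The p-values, standard errors and intervals rest on 1 spread per gene, pooled within all 9 groups of the 27 arrays. They do not measure the spread of the compared arrays alone. The samples were not stated to be separate animals.

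Il10 encodes interleukin-10, a cytokine through which regulatory T cells and macrophages restrain responses to gut microbes. Mice that lack it develop colitis whose onset and severity depend on the microbes they carry, and the disease is driven by macrophage and T helper cell cytokines, among them interferon gamma. SPF housing keeps out a defined set of pathogens and is not germ-free, so SPF knockouts still carry gut bacteria. Inflamed colon gains neutrophils, macrophages and T cells and loses transcripts of absorptive and secretory epithelium.

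The deposited values are log2 expression, so a difference of 1 is a doubling. Arrays had medians between 4.91 and 4.99, and the lowest array value was 2.1, so levels near 3 are close to the bottom of the scale. Colon markers were bright in all 6 arrays: the chloride exchanger Slc26a3 read 10.82 to 12.15 and the goblet cell product Clca1 read 11.73 to 13.55. The signal of beta-actin at the 3' end exceeded that at the 5' end by 0.37 to 0.48 in conventional knockouts and 0.38 to 0.53 in SPF knockouts. The Il10 probe set read 6.35, 6.30 and 5.66 in conventional knockouts and 5.58, 5.42 and 5.94 in SPF knockouts, with a wild-type mean of 3.62 ± 0.10 (SD, n = 3). The position of this probe relative to the knocked-out part is not stated, so it checks nothing about the genotype.

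The ages rest on the sample titles alone, and one feature of the arrays bears on how firmly they can be read. As a mean over 13 neutrophil markers, arrays labelled conventional knockout stood -0.07 to 0.03 from the wild types of their age at 7 weeks, 1.56 to 2.75 at 9 weeks and 0.03 to 0.18 at 12 weeks. Arrays labelled SPF knockout stood -0.06 to 0.10 from them at 7 weeks, 0.03 to 1.54 at 9 weeks and 0.79 to 4.09 at 12 weeks. The conventional arrays of 12 weeks thus read like those of 7 weeks, while those of 9 weeks did not. Whether the 9- and 12-week labels of a housing group were exchanged was not tested, and the values below hold for the arrays as labelled.

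Conventional knockouts had the higher mean for genes of neutrophils, macrophages, T cells and interferon gamma, and the lower mean for most transport genes of absorptive epithelium. No gene passed the test, however. Called genes at a Benjamini-Hochberg adjusted p under 0.05 in limma numbered 0 of 18193 (0.0%), and the smallest adjusted p was 0.169, shared by 38 genes. At an unadjusted p under 0.05 there were 1468 genes (8.07%), of which 968 (5.32%) were higher and 500 (2.75%) lower in conventional knockouts. All 3 conventional arrays lay above all 3 SPF arrays in 1247 genes (6.85%) and below them in 900 (4.95%), so the groups were apart in 2147 (11.8%). A log2 difference of at least 1 was found in 130 genes on the higher side (0.715%) and 43 on the lower (0.236%). The median difference of all genes was 0.01 and its size 0.10, and the 95% interval of a typical gene reached 0.28 to either side of its estimate. In 125 of the 130 genes the SPF mean lay between the conventional and the wild-type mean, as it did in 40 of the 43. That is a position of means, and the 3 SPF arrays differed among themselves. Choosing genes by this difference already fixes on which side of the conventional mean the SPF mean lies. The share over all genes was not counted.

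The arrays of a group were not alike. Of the 173 genes with a difference of at least 1 in either direction (0.951%), SPF replicate 3 was the SPF array nearest to the conventional mean in 162, and conventional replicate 3 was the conventional array nearest to the SPF mean in 152. Without SPF replicate 3, 18 genes were called, 15 higher and 3 lower in conventional knockouts, and without conventional replicate 3, 2 genes were called. In a fit that weights arrays by their spread, 3681 genes were called, with a weight of 0.344 for SPF replicate 3, 0.864 for SPF replicate 1, 5.85 for SPF replicate 2, and 0.474 for conventional replicate 3. The count therefore depends on how these arrays are treated, and every 9-week difference below is given without a call. Leaving out an array of another age also moved the count, to 185 genes without SPF replicate 2 of 12 weeks, to 23 without SPF replicate 3 of 12 weeks, and to 1 without SPF replicate 3 of 7 weeks. Leaving out 1 of the 6 arrays of 9 weeks moved the median difference of 42 of the 54 gene lists by over 1.5 times or across 0, and for 27 of them SPF replicate 3 did so. Where the median of such a list is printed, the lowest and highest median without 1 array follows it as a range.

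Neutrophil markers had the highest median difference of the 54 lists. S100a8, a subunit of the antimicrobial protein calprotectin of neutrophils, read 10.55, 11.08 and 9.14 in conventional knockouts and 3.84, 4.63 and 9.66 in SPF knockouts, against a wild-type mean of 3.28 ± 0.07 (SD, n = 3). SPF replicate 3 thus lay within the conventional range, while the other two SPF arrays were far below it. The difference was 4.21 ± 1.12 (SE from the pooled spread of all groups, n = 3 arrays per group, adjusted p = 0.194). S100a9, the partner subunit, read 10.77, 11.11 and 8.50 in conventional knockouts and 3.56, 4.16 and 8.74 in SPF knockouts, a difference of 4.64 ± 1.18 (adjusted p = 0.182). Cxcl5, a chemokine that attracts neutrophils, read 9.67, 9.39 and 7.69 in conventional knockouts and 4.47, 4.97 and 8.90 in SPF knockouts. The groups did not overlap for Lcn2, the siderophore-binding lipocalin 2, with 8.29, 8.17 and 7.60 in conventional and 3.92, 4.21 and 7.37 in SPF knockouts. They were also apart for 2 genes singled out after their values were seen. Fpr2, a receptor for formylated bacterial peptides, read 8.28, 7.83 and 6.38 in conventional and 3.69, 3.96 and 6.04 in SPF knockouts. Clec4e, a C-type lectin receptor of myeloid cells, read 7.26, 6.17 and 4.42 in conventional and 2.77, 2.76 and 3.67 in SPF knockouts.

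Of the 13 neutrophil markers measured, 7 had an unadjusted p under 0.05, all 7 higher, beside 5.32% of all genes. In 6, all conventional arrays lay above all SPF arrays, beside 6.85% of all genes. The median difference of the 13 was 1.30, beside 0.01 over all genes. Among 18 neutrophil alarmins and chemokines, a list that shares members with the markers, 9 had such a p and the median was 0.99 (range 0.60 to 1.42, the lowest without SPF replicate 1). As a mean over the markers, conventional replicates 1, 2 and 3 stood 2.75, 2.63 and 1.56 above the wild-type mean, and SPF replicates 1, 2 and 3 stood 0.03, 0.21 and 1.54 above it. In whole colon, more cells of a type and more RNA per cell cannot be told apart.

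**Figure D1:**
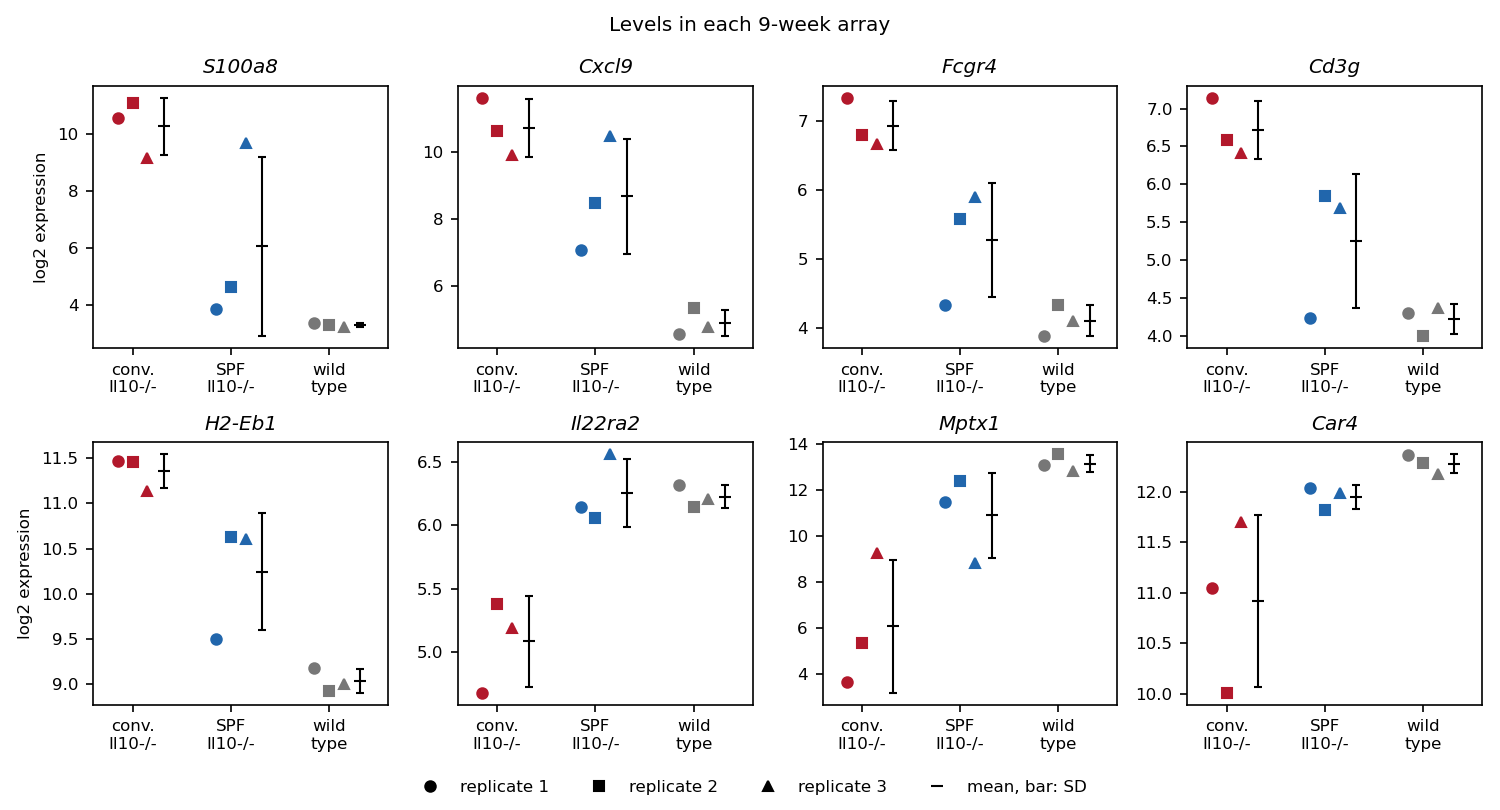
Log2 expression (y axis, 1 panel per gene, each with its own scale) in each 9-week array of conventional knockouts, SPF knockouts and wild types; shapes mark the replicate, and bars show the mean and SD of 3 arrays. SPF replicate 3 (blue triangle) lay inside the conventional range for S100a8 and Cxcl9, while Fcgr4, Cd3g, H2-Eb1, Il22ra2 and Car4 had no overlap between the knockout groups.

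All conventional arrays lay above all SPF arrays in 14 of 21 macrophage markers, beside 6.85% of all genes. Fcgr4, an activating receptor for IgG, read 7.34, 6.80 and 6.67 in conventional knockouts and 4.34, 5.59 and 5.90 in SPF knockouts, against 4.11 ± 0.22 in wild types (SD, n = 3). All conventional arrays were higher, by 1.66 ± 0.41 on the mean (SE, adjusted p = 0.178). C1qa, a chain of the complement recognition protein C1q made by tissue macrophages, read 9.68, 9.72 and 9.36 in conventional and 8.14, 8.73 and 8.75 in SPF knockouts, a difference of 1.05 ± 0.23 (adjusted p = 0.169). For both genes, SPF replicates 2 and 3 were close to each other and replicate 1 was the lowest. Clec4n, the fungal receptor dectin-2, read 8.49, 8.07 and 6.95 in conventional and 5.75, 6.36 and 6.89 in SPF knockouts, so its groups were apart by a small margin.

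Of 21 macrophage and monocyte markers, 18 had an unadjusted p under 0.05, all 18 higher, beside 5.32% of all genes. All 21 estimates were positive, with a median of 0.99 and a range of 0.18 to 1.66. Also higher, and chosen after their values were seen, were Csf1r, the receptor for macrophage colony-stimulating factor, with a difference of 0.92 ± 0.24, and Mpeg1, the pore-forming perforin-2, with 1.16 ± 0.28. Aif1, the macrophage protein Iba1, also chosen after its values were seen, differed by 1.39 ± 0.37 but SPF replicate 3, at 7.02, lay above conventional replicate 3, at 6.87. Complement genes followed with 10 of 14 higher at an unadjusted p under 0.05 and a median of 0.55. In 7 of them all conventional arrays lay above, beside 6.85% of all genes. C1s1, a protease of the classical pathway chosen after its values were seen, read 9.13, 9.15 and 8.68 in conventional knockouts and 7.68, 8.25 and 8.22 in SPF knockouts. Clec7a, the beta-glucan receptor dectin-1, again chosen after its values were seen, read 10.03, 9.85 and 8.50 in conventional and 6.03, 7.14 and 8.36 in SPF knockouts.

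T cell and cytotoxic genes were also higher in conventional knockouts, though unevenly. Cd3g, a chain of the T cell receptor complex, read 7.14, 6.59 and 6.41 in conventional knockouts and 4.23, 5.84 and 5.68 in SPF knockouts, a difference of 1.46 ± 0.33 (SE, adjusted p = 0.169). SPF replicate 1 was at the wild-type mean of 4.22, and the other two SPF arrays stood between. Cd4 and Cd8a, which mark helper and killer T cells, were looked up after the list was seen. Cd4 read 6.72, 6.56 and 6.17 in conventional and 5.69, 5.94 and 6.05 in SPF knockouts, and Cd8a read 5.29, 5.28 and 5.25 in conventional and 4.96, 5.23 and 5.30 in SPF knockouts. The difference of Cd8a was 0.11 with a 95% interval of -0.17 to 0.39. Other, dimmer probe sets gave 0.03 for Cd4 and 0.03 to 0.45 for Cd8a, and a difference between both genes was not tested. Of 17 T cell markers, 8 had an unadjusted p under 0.05, all 8 higher, beside 5.32% of all genes, with a median of 0.40.

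Ccl5, a chemokine made by activated T and natural killer cells, had the smallest p of the chemokines. It read 8.73, 8.12 and 8.07 in conventional knockouts and 5.56, 6.73 and 7.02 in SPF knockouts, a difference of 1.87 with a 95% interval of 1.11 to 2.63 (adjusted p = 0.169). Gzma, a granzyme of killer lymphocytes, read 8.87, 8.03 and 8.50 in conventional and 5.68, 7.21 and 7.63 in SPF knockouts. Gzmb and Nkg7, both parts of cytotoxic granules and both chosen after their values were seen, differed by 1.32 ± 0.31 and 1.11 ± 0.28. Of 12 cytotoxic lymphocyte markers, 7 had an unadjusted p under 0.05, all 7 higher, beside 5.32% of all genes. In 5 all conventional arrays lay above, beside 6.85% of all genes, and the list median was 0.41.

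The regulatory T cell and checkpoint list held 15 measured genes. An unadjusted p under 0.05 was reached by 7, all 7 higher, beside 5.32% of all genes. All conventional arrays lay above in 9 and below in 1, beside 6.85% and 4.95% of all genes. Ctla4, an inhibitory receptor of T cells, read 5.75, 4.99 and 4.57 in conventional knockouts and 3.73, 3.93 and 4.18 in SPF knockouts. Cd274, the ligand PD-L1, read 7.56, 7.01 and 6.65 in conventional and 5.66, 6.09 and 6.44 in SPF knockouts. Tnfrsf18, the receptor GITR, and Itgae, an integrin chain of mucosal lymphocytes, were chosen after their values were seen and differed by 0.64 ± 0.14 and 0.59 ± 0.14. Foxp3, the factor that defines regulatory T cells, was close to the bottom of the scale, at 2.97, 3.19 and 3.20 in conventional knockouts and 3.23, 3.26 and 3.30 in SPF knockouts, and Il2ra, the interleukin-2 receptor chain, at 3.41, 3.35 and 3.26 in conventional and 3.58, 3.48 and 3.26 in SPF knockouts. Both were chosen after their values were seen, from a list in which 13 of 15 estimates were higher. At these probe sets their means were not higher in conventional knockouts, but a second Il2ra probe set, about as dim, gave 0.06. So near the bottom of the scale their direction cannot be read, and a difference from Ctla4, Cd274, Tnfrsf18 and Itgae was not tested.

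**Figure D2:**
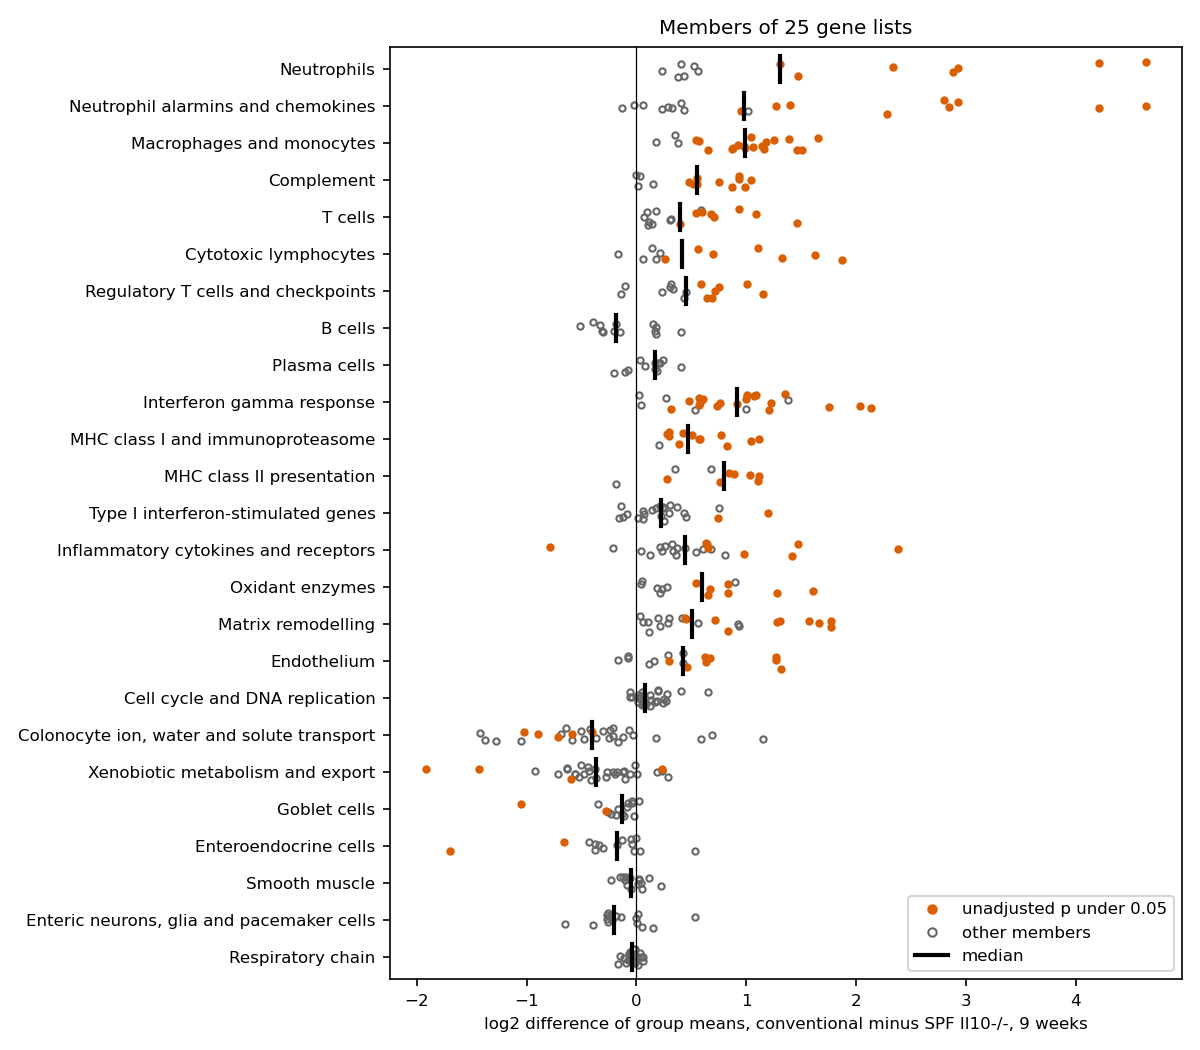
Log2 difference of group means, conventional minus SPF knockouts at 9 weeks (x axis), for every measured member of 25 gene lists (y axis); filled orange points have an unadjusted p under 0.05, open points do not, and the black bar is the median. Macrophage and interferon gamma lists lay almost wholly right of 0, while the respiratory chain list stayed close to it.

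Interferon gamma genes lay on 1 side. All 25 measured genes had positive estimates, with a median of 0.91. An unadjusted p under 0.05 was reached by 19, beside 5.32% of all genes on the higher side. All conventional arrays lay above all SPF arrays in 4 of the 25, beside 6.85% of all genes. Ubd, an interferon-induced ubiquitin-like modifier, read 10.52, 10.66 and 9.46 in conventional knockouts and 6.21, 8.82 and 9.20 in SPF knockouts. Cxcl9, a chemokine that recruits T cells through the receptor CXCR3, read 11.62, 10.63 and 9.91 in conventional and 7.08, 8.47 and 10.49 in SPF knockouts, so its groups overlapped at SPF replicate 3. All 3 SPF arrays were above the wild-type mean of 4.89. Cxcl10, a chemokine for the same receptor that was named after its values were seen, read 9.38, 9.09 and 7.50 in conventional knockouts and 5.63, 6.47 and 8.60 in SPF knockouts. Ifng itself, looked up after the list was seen, read 6.82, 4.68 and 3.27 in conventional knockouts and 2.76, 3.31 and 4.56 in SPF knockouts, a difference of 1.38 with a 95% interval of -0.05 to 2.8. Over the list, the conventional arrays stood 1.94 to 2.87 above the wild-type mean and the SPF arrays 0.97 to 2.18 above it.

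Antigen presentation genes were higher in conventional knockouts as well. In the class I list, 13 of 14 genes had an unadjusted p under 0.05, all 13 higher, beside 5.32% of all genes. The median was 0.47 (range 0.29 to 0.63, the lowest without SPF replicate 1). All conventional arrays lay above in 6, beside 6.85% of all genes. Nlrc5, the transactivator of class I genes, read 8.39, 8.12 and 7.75 in conventional knockouts and 5.96, 7.10 and 7.86 in SPF knockouts. Tap1, a subunit of the peptide transporter, read 10.12, 9.95 and 9.48 in conventional and 8.15, 8.64 and 9.63 in SPF knockouts. Both overlapped through SPF replicate 3. In the class II list, 7 of 10 genes had such a p, all 7 higher, 6 were apart, and the median was 0.80 (range 0.52 to 1.03, the lowest without SPF replicate 1). H2-Eb1, a class II beta chain, read 11.47, 11.46 and 11.14 in conventional and 9.50, 10.63 and 10.61 in SPF knockouts, and H2-DMa, a chain of the peptide exchange factor, 9.84, 9.67 and 9.20 in conventional and 7.73, 8.72 and 8.91 in SPF knockouts. The class II genes had no overlap at these members.

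Of 23 type I interferon-stimulated genes, 2 were higher at an unadjusted p under 0.05, where 5.32% of all genes were, and the median was 0.22 (range 0.14 to 0.33). Ifit2, an interferon-induced RNA-binding protein, read 9.76, 9.11 and 8.65 in conventional knockouts and 7.58, 7.92 and 8.41 in SPF knockouts. Whether this list differs from the interferon gamma list was not tested.

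Of 23 inflammatory cytokines and receptors, 7 reached an unadjusted p under 0.05 on the higher side and 1 on the lower. Over all genes these shares were 5.32% and 2.75%. The list median was 0.44 (range 0.31 to 0.72, the highest without SPF replicate 3). Il1b, the pro-inflammatory interleukin-1 beta, read 9.22, 8.67 and 6.75 in conventional knockouts and 5.0, 5.41 and 7.09 in SPF knockouts. Il1r2, its decoy receptor, read 7.37, 6.69 and 5.68 in conventional and 4.70, 4.78 and 5.84 in SPF knockouts. SPF replicate 3 was in both cases above conventional replicate 3. Ccl8, a chemokine for monocytes, read 9.49, 8.97 and 8.46 in conventional and 6.35, 7.38 and 8.16 in SPF knockouts, so here the groups were apart. In the list of genes of the interleukin-17 and interleukin-22 axis, 2 of 12 were higher and 1 lower (median 0.14, range 0.076 to 0.20). Il22ra2, the secreted binding protein that neutralises interleukin-22, was the lower one, at 4.68, 5.38 and 5.19 in conventional knockouts and 6.14, 6.06 and 6.56 in SPF knockouts, a difference of -1.17 ± 0.30 (SE, adjusted p = 0.182). The SPF arrays were near the wild-type mean of 6.22. Batf, a transcription factor of T helper cells, read 6.60, 6.22 and 6.11 in conventional and 5.88, 5.62 and 5.79 in SPF knockouts. Of 21 targets of STAT3 and acute phase genes, 5 were higher with a median of 0.36. The type 2 cytokine list had a median of 0.036 (range 0.012 to 0.11) with 3 of 17 higher.

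Tissue response genes are given next, where 5.32% of all genes were higher at an unadjusted p under 0.05. Among 14 oxidant enzymes, 7 were higher at an unadjusted p under 0.05 (median 0.60, range 0.38 to 0.74), led by Cybb, the catalytic subunit of the phagocyte oxidase, which read 7.39, 7.24 and 6.01 in conventional knockouts and 4.63, 5.19 and 6.0 in SPF knockouts. Nos2, the inducible nitric oxide synthase, read 7.63, 6.67 and 6.30 in conventional and 4.67, 5.37 and 6.71 in SPF knockouts. In matrix remodelling, 10 of 22 genes were higher (median 0.51). Mmp10, a stromelysin, read 9.25, 7.56 and 6.74 in conventional and 4.98, 5.83 and 7.43 in SPF knockouts, and Mmp7, matrilysin, chosen after its values were seen, 8.51, 9.39 and 8.23 in conventional and 5.84, 7.23 and 8.08 in SPF knockouts. SPF replicate 3 was the lowest SPF array in 18 of the 19 collagen and fibroblast matrix genes. Their median was 0.22 (range 0.060 to 0.38), which became 0.077 without that array and 0.060 without conventional replicate 2. Of the 19, 3 were higher, among them Col18a1, a basement membrane collagen, at 7.91, 8.52 and 7.80 in conventional and 7.01, 7.17 and 7.39 in SPF knockouts.

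Endothelial markers had 8 of 16 higher at an unadjusted p under 0.05, beside 5.32% of all genes. All conventional arrays lay above in 6 of the 16, beside 6.85% of all genes. The list median was 0.42 (range 0.26 to 0.55, the lowest without conventional replicate 2). Vcam1, which binds leukocytes that roll on vessel walls, read 7.76, 7.43 and 7.68 in conventional knockouts and 5.48, 6.43 and 7.01 in SPF knockouts. Selp, the P-selectin that starts rolling, read 5.47, 5.39 and 4.78 in conventional and 3.76, 3.70 and 4.35 in SPF knockouts. Icam1, another adhesion molecule, was chosen after its values were seen and read 8.30, 8.19 and 6.80 in conventional and 5.58, 6.29 and 7.60 in SPF knockouts, so it overlapped where Vcam1 and Selp did not. In Vcam1, Selp and Icam1 SPF replicate 3 was the highest SPF array, which held for only 4 of the 16 markers. It was the lowest SPF array in 12 of the 16. Over the whole list the conventional arrays stood 0.40 to 0.70 above the wild-type mean and the SPF arrays 0.00 to 0.12 above it.

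**Figure D3:**
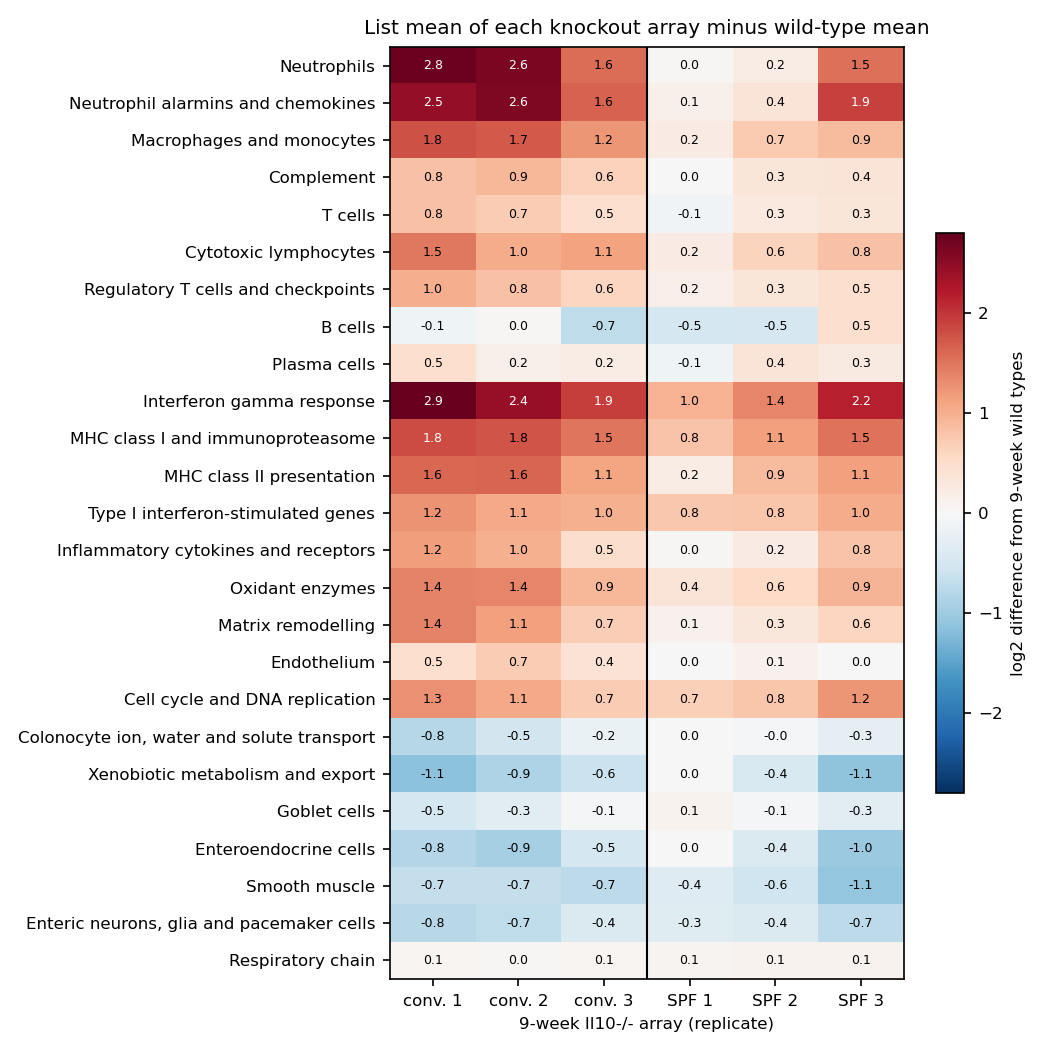
Mean log2 level of each of 25 gene lists (rows) in each 9-week knockout array (columns) minus the mean of the 3 wild-type arrays, as colour and number. Conventional arrays are the 3 columns left of the line; SPF replicate 3 reached 1.54 for the neutrophil list and -1.13 for the xenobiotic list, while SPF replicate 1 was between -0.49 and 0.97 over all 25 lists.

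Estimates were lower in conventional knockouts for 25 of 29 colonocyte transport genes, 13 of 14 colonocyte markers and 14 of 15 goblet cell markers. The same held for 27 of 33 xenobiotic genes and 12 of 15 enteroendocrine, 9 of 11 tuft cell and 9 of 15 crypt markers. Epithelial junctions had 12 higher and 12 lower, and antimicrobial defence 14 higher and 9 lower. Of 29 transport genes, 5 had an unadjusted p under 0.05, all 5 lower, beside 2.75% of all genes. In 6 all conventional arrays lay below, beside 4.95% of all genes, and the list median was -0.40. Slc26a3, which takes up chloride for bicarbonate and was chosen after its values were seen, read 11.03, 10.82 and 11.54 in conventional knockouts and 12.15, 11.82 and 12.11 in SPF knockouts. Car4, a carbonic anhydrase of the brush border, read 11.05, 10.01 and 11.70 in conventional and 12.04, 11.82 and 11.99 in SPF knockouts. Car2, a cytosolic carbonic anhydrase chosen after its values were seen, read 11.33, 11.56 and 11.77 in conventional and 12.55, 12.38 and 11.86 in SPF knockouts. Aqp8, a water channel of colonocytes, read 9.12, 9.26 and 9.28 in conventional and 10.96, 10.33 and 10.21 in SPF knockouts. All 4 genes had the conventional arrays below the SPF arrays. Of the 14 colonocyte markers, 2 were lower at such a p and the median was -0.21 (range -0.39 to -0.084). Of 24 genes of epithelial junctions, 1 was higher and 2 were lower at such a p, beside 5.32% and 2.75% of all genes. The junction median was -0.013 (range -0.04 to 0.023).

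Larger but more variable differences came from a few other genes. Mptx1, a mucosal pentraxin of colon epithelium, read 3.63, 5.33 and 9.26 in conventional knockouts and 11.47, 12.37 and 8.83 in SPF knockouts, against 13.15 ± 0.38 in wild types (SD, n = 3). The difference was -4.81 with a 95% interval of -7.67 to -1.96 from the pooled spread of all groups (adjusted p = 0.232). The groups overlapped at both replicates 3. Tgm3, an epidermal-type transglutaminase, read 5.62, 6.35 and 8.36 in conventional and 10.55, 10.44 and 7.69 in SPF knockouts, with the same overlap. Sycn, a protein of secretory granules, read 7.27, 7.22 and 8.63 in conventional and 11.19, 10.55 and 8.52 in SPF knockouts. It stands in the list of pancreatic acinar markers, of which 4 of 9 read under 5 in all 6 arrays. With Sycn itself included, the list summed to between 46.3 and 49.3 log2 units in conventional arrays and between 47.8 and 53.2 in SPF arrays. The median difference of its members was 0.032 (range -0.073 to 0.098), with 5 of 9 higher and 4 lower. Dim members count in this median like the others, and the lowest median in another processing setting was -0.78. With array weights, 3 members were called lower and 0 higher. Clps, another member, differed by -0.87, and by -1.21 at a dimmer probe set. What part acinar cells had in the Sycn difference was not tested.

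Xenobiotic metabolism genes had 3 of 33 on the lower side and 1 on the higher with an unadjusted p under 0.05. For this and the lists that follow, 2.75% of all genes were lower and 5.32% higher at such a p. The xenobiotic median was -0.37 (range -0.62 to -0.13). The median became -0.13 without SPF replicate 1, -0.22 without conventional replicate 1 and -0.62 without SPF replicate 3. The cytochrome P450 gene Cyp2c68 read 5.50, 6.07 and 6.53 in conventional knockouts and 8.73, 8.68 and 6.45 in SPF knockouts. Here SPF replicate 3, at -1.13 relative to the wild-type mean over the list, was as low as conventional replicate 1, at -1.15. Goblet cell markers had 2 of 15 lower and a median of -0.13 (range -0.26 to -0.015), with Clca1, a secreted mucus protein, at 11.73, 12.15 and 12.86 in conventional and 13.42, 13.55 and 12.93 in SPF knockouts. Enteroendocrine markers had 2 of 15 lower and a median of -0.18 (range -0.63 to 0.078). Neurod1, a transcription factor of these cells, read 4.35, 4.22 and 4.43 in conventional and 5.53, 4.98 and 4.45 in SPF knockouts. Insl5, a peptide hormone of colonic L cells, read 6.65, 6.35 and 8.47 in conventional and 9.49, 9.21 and 7.87 in SPF knockouts. Tuft cell markers had 1 lower and 1 higher of 11 (median -0.17, range -0.27 to -0.083). Crypt stem and progenitor markers had 2 lower of 15 (median -0.12, range -0.255 to -0.025). Cldn4, a tight junction protein, went the other way, at 7.36, 7.39 and 7.49 in conventional and 6.71, 6.19 and 6.77 in SPF knockouts, a difference of 0.86 ± 0.23 (adjusted p = 0.204). The conventional arrays were near the wild-type mean of 7.25 and the SPF arrays below it. Among 23 genes of epithelial antimicrobial defence, 4 were higher and 2 lower, with a median of 0.040 (range 0.003 to 0.057). Sprr2h, a small proline-rich protein of epithelium, read 9.12, 8.17 and 8.41 in conventional and 4.69, 4.31 and 8.39 in SPF knockouts.

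Smaller immune and stromal lists lay between these. Of 18 CC chemokines, 6 were on the higher side and 1 on the lower at an unadjusted p under 0.05. For this and the lists that follow, 5.32% of all genes were higher and 2.75% lower at such a p. The chemokine median was 0.31 (range 0.17 to 0.37). Dendritic cell markers had 3 of 12 higher (median 0.20), among them Cd86, a costimulatory ligand, at 6.61, 6.10 and 5.49 in conventional knockouts and 4.85, 5.08 and 5.44 in SPF knockouts. Fibroblast and pericyte markers had 3 of 14 higher, and SPF replicate 3 was the lowest SPF array in 10 of the 14. Their median was 0.22 (range 0.059 to 0.35), which became 0.059 without that array and 0.065 without conventional replicate 2. Pdgfrb, the platelet-derived growth factor receptor of pericytes, read 7.77, 8.02 and 7.85 in conventional and 7.04, 7.63 and 7.06 in SPF knockouts. Its wild-type mean of 7.79 was close to the conventional arrays. Pattern recognition genes had 3 of 22 higher (median 0.18, range 0.091 to 0.23). The largest rise was that of Tlr13, a sensor of bacterial ribosomal RNA, at 4.93, 5.57 and 5.13 in conventional and 3.97, 4.58 and 4.68 in SPF knockouts. Gsdmc2 had the largest difference of that list and went the other way, at -0.92. Glycolysis and hypoxia genes had 3 of 18 higher (median 0.22, range 0.14 to 0.33), and Hk3, a hexokinase of myeloid cells, read 6.65, 6.24 and 6.12 in conventional and 5.53, 5.45 and 5.78 in SPF knockouts. Cholesterol and fatty acid synthesis had 2 of 18 higher (median 0.15, range 0.078 to 0.30), where Fdft1, the squalene synthase, differed by 0.50 ± 0.16 (SE). Scd1 had the largest difference of that list, in the other direction, at -0.62. Immediate early genes had 3 of 18 higher (median 0.14) and prostaglandin genes 3 of 17 (median 0.092, range 0.047 to 0.18). The 19 microbiota-responsive epithelial genes had 2 higher with a median of -0.042 (range -0.066 to -0.002). Eosinophil and mast cell markers had 1 of 15 higher, beside 5.32% of all genes, and a median of 0.002 (range -0.036 to 0.072). Adipocyte, erythroid and squamous markers, which mark tissue around the colon or blood, had 0 of 7, 0 of 4 and 0 of 9 at such a p. Skeletal muscle markers had 1 of 12 lower. Under 5 in all 6 arrays were 4 of 4 erythroid, 7 of 9 squamous and 10 of 12 skeletal muscle members. Lists this dim could hardly show a difference, so their counts do not settle whether such tissue was present. Adipoq, an adipocyte hormone, read 6.33, 5.36 and 6.87 in conventional knockouts and 8.59, 3.36 and 7.05 in SPF knockouts, a wide spread within the SPF group.

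Other lists had few or no such members. Of 29 cell cycle and DNA replication genes, 0 had an unadjusted p under 0.05, with a median of 0.077 (range -0.031 to 0.25). Their mean over the list nevertheless stood 0.71 to 1.29 above the wild types in conventional arrays and 0.67 to 1.24 above them in SPF arrays, with SPF replicate 3 the highest SPF array in 27 of 29 genes. Of 24 respiratory chain genes none had such a p, with a median of -0.042 (range -0.04 to -0.023). The same held for 13 B cell markers (median -0.19, range -0.39 to 0.21), 12 plasma cell markers (0.17, range -0.026 to 0.24), 15 smooth muscle markers (-0.045, range -0.24 to 0.12) and 16 markers of enteric neurons, glia and pacemaker cells (-0.21, range -0.36 to -0.031), each with 0 members at such a p. B cell markers separated arrays within groups, since all 13 were highest in SPF replicate 3 among the SPF arrays. Fatty acid oxidation genes had 1 of 23 higher, beside 5.32% of all genes, and a median of -0.10 (range -0.30 to 0.006). The unfolded protein response had 1 of 23 lower, beside 2.75% of all genes, and a median of -0.034 (range -0.13 to 0.10). Of the 3 genes with the smallest p besides Ccl5, all chosen after their values were seen, Crym, a thyroid hormone-binding crystallin, read 3.50, 3.45 and 3.33 in conventional knockouts and 4.13, 4.11 and 4.0 in SPF knockouts. Spata6 read 6.76, 6.47 and 6.70 in conventional and 6.0, 5.90 and 6.12 in SPF knockouts, and Spag1 read 2.94, 3.14 and 3.03 in conventional and 3.66, 3.57 and 3.34 in SPF knockouts. Replicates of a group were close together in each, and the differences were under 1.

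The 9-week difference was next set against the difference at 7 weeks, within the same model. The 2 differences were unlike in 17 of 18193 genes (0.0934%), 8 with a positive (0.044%) and 9 with a negative (0.0495%) change of the difference (limma, adjusted p under 0.05). Of these 17, 9 are members of the 17-gene list of the circadian clock, the cell-intrinsic feedback loop in which Arntl and its partners Clock and Npas2 activate the Per and Cry repressors, and Nr1d1 and Nr1d2 repress Arntl in turn. Of the 54 gene lists, 52 held no called gene, and the epithelial junction list held 1, Cldn8. Dbp, a clock-output transcription factor, read 5.53, 4.87 and 5.03 at 7 weeks and 5.0, 5.76 and 7.05 at 9 weeks in conventional knockouts. In SPF knockouts it read 10.16, 10.33 and 10.18 at 7 weeks and 4.78, 5.02 and 3.90 at 9 weeks. The change of the difference was 6.45 ± 0.94 (SE, adjusted p = 0.00410). It was the SPF knockouts of 7 weeks that stood apart, and at 9 weeks both groups overlapped.

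The other members followed the same groups. Nr1d1 and Nr1d2, the REV-ERB repressors, had changes of 3.60 ± 0.59 and 3.47 ± 0.52, Tef, a relative of Dbp, 3.07 ± 0.48 and Ciart, a repressor of the clock, 2.75 ± 0.37. Arntl, the activator BMAL1, had -2.97 ± 0.47, Cry1 -2.54 ± 0.34, Npas2 -2.46 ± 0.37 and Nfil3, a repressor that competes with Dbp, -2.04 ± 0.34. Arntl read 8.53, 8.60 and 8.47 at 7 weeks and 7.46, 7.56 and 7.09 at 9 weeks in conventional knockouts, and 6.44, 6.14 and 6.22 at 7 weeks and 8.28, 8.14 and 7.81 at 9 weeks in SPF knockouts. At 9 weeks the conventional arrays lay below the SPF arrays for Arntl and Cry1 and above them for Ciart. Within the conventional group Dbp and Nr1d1 were highest and Arntl lowest in replicate 3. Bhlhe40, a clock repressor, and Per1 were looked up after the list was seen and differed at 9 weeks by 0.50 ± 0.14 and 0.75 ± 0.28. The claudin Cldn8 had a change of -2.65. The remaining 7 called genes were named after their values were seen. They were the tensin Tns4, the signalling regulator Trafd1 and the lymphocyte receptor Cd244a on the positive side, and Lonrf3, Spon2, the phosphatase Dusp6 and the pseudokinase Trib1 on the negative side.

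The start regions of these clock genes were read for the binding motifs of the loop, since the genes changed together. The windows are the 250 bases before the RefSeq start on the gene's strand (build GRCm38.p6), and both strands were searched. The E-box CACGTG, bound by the activators, lies in 6.02% of 32851 such windows. The D-box TTANGTAA, bound by Dbp, Tef and Nfil3, lies in 2.06%, and the ROR element TAGGTCA, bound by the REV-ERB and ROR receptors, in 2.23%. Ciart held 3 E-boxes, Tef 1 at either of its 2 starts and Cry1 1. Nfil3 held 1 ROR element, on the opposite strand, where it reads TGACCTA. Dbp, Nr1d1, Nr1d2, Arntl and Npas2 held none of the 3 in this window. The windows with a match are shown for Ciart, whose change had the sign of that of Dbp, and for Cry1 and Nfil3, which had the opposite sign, with the motif in capitals.
Ciart, chr3:95882229-95882478, minus strand: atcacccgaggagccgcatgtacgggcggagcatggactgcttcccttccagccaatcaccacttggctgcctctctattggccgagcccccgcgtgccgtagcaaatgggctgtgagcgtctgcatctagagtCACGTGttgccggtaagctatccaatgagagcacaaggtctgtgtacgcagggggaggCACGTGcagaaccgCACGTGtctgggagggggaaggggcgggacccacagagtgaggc
Cry1, chr10:85185055-85185304, minus strand: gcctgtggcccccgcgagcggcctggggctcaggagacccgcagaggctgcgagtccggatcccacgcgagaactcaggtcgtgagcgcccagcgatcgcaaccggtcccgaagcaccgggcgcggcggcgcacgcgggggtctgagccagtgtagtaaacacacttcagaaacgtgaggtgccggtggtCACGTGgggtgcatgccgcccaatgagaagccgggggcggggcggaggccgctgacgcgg
Nfil3, chr13:52981040-52981289, minus strand: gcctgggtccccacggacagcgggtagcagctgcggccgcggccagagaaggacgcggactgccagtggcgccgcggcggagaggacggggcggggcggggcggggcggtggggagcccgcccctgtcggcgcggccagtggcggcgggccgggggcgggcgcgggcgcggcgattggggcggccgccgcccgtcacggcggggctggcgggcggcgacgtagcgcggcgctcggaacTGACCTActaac
E-boxes stood before genes of both signs. A match shows only that these letters are present. An absence shows only that the exact letters are not in the 250 bases before the start. Variants of a motif and sites across or after the start were not searched.

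**Figure D4:**
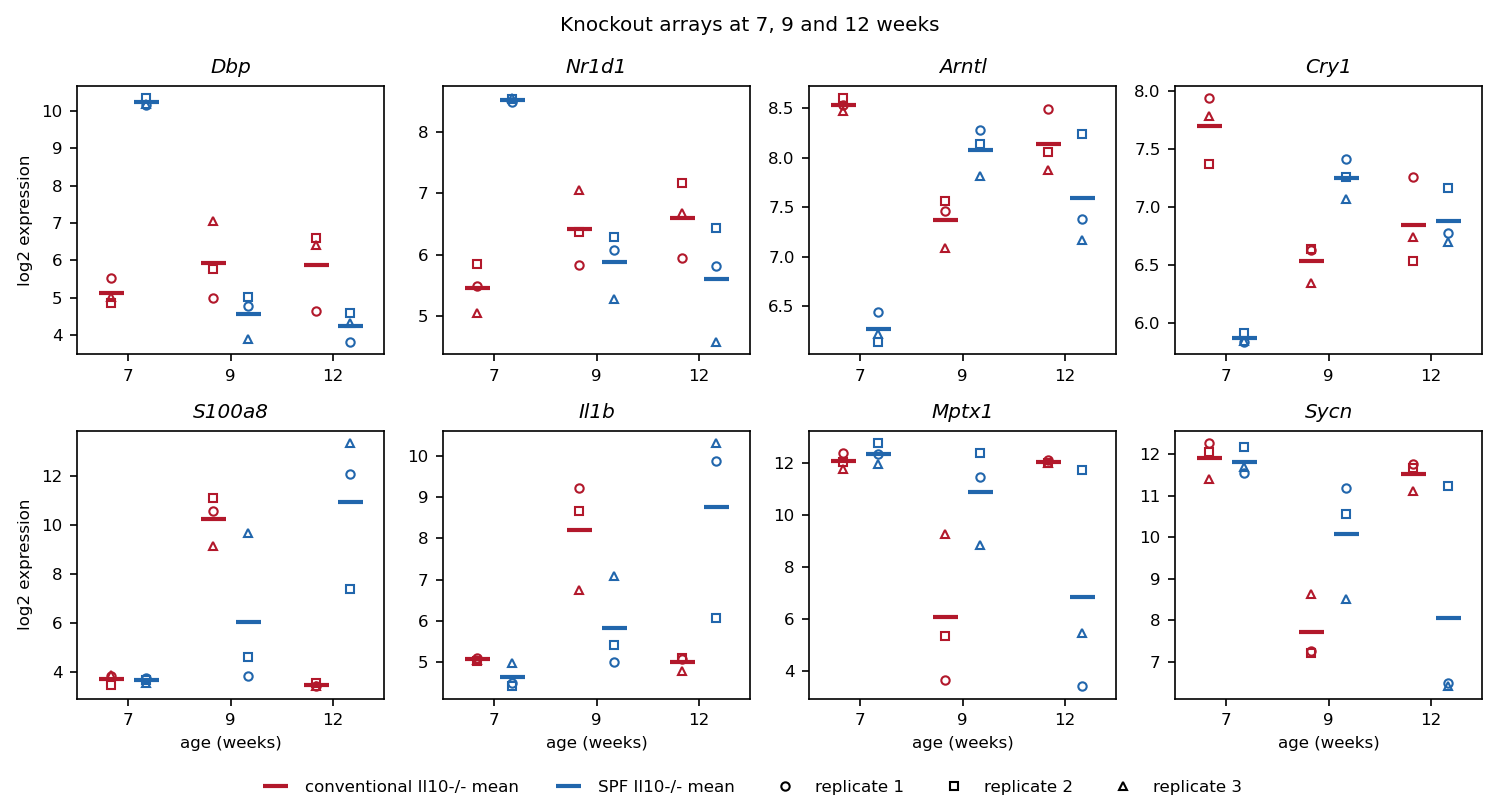
Log2 expression (y axis, own scale per panel) at 7, 9 and 12 weeks (x axis) in conventional and SPF knockouts; open symbols are arrays by replicate and bars are means of 3. The SPF arrays of 7 weeks stood apart for Dbp, Nr1d1, Arntl and Cry1, and for S100a8 the conventional arrays were high at 9 weeks and the SPF arrays at 12 weeks.

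The difference at 9 weeks was unlike that at 12 weeks in 3387 genes (18.6%), with 1944 (10.7%) more positive and 1443 (7.93%) more negative at 9 weeks (limma, adjusted p under 0.05). The 9- and 12-week differences had opposite signs in 97.6% of the called genes, a share that choosing genes by the gap between both differences raises by itself, beside 63.5% of all 18193 genes and 55.8% of those not called. In 3102 of the called genes the 12-week difference was the larger in size. That count rests on the same choice of genes by the gap, and the share over all genes was not counted. S100a8 read 3.84, 3.50 and 3.89 at 7 weeks, 10.55, 11.08 and 9.14 at 9 weeks and 3.43, 3.56 and 3.46 at 12 weeks in conventional knockouts. In SPF knockouts it read 3.78, 3.71 and 3.56 at 7 weeks, 3.84, 4.63 and 9.66 at 9 weeks and 12.06, 7.41 and 13.34 at 12 weeks. As labelled, conventional arrays were thus high at 9 weeks and not at 7 or 12 weeks, and SPF arrays were high at 12 weeks and in 1 array of 9 weeks. The 9-week difference exceeded the 12-week one by 11.66 ± 1.58 (adjusted p = 0.000552).

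Other genes with large positive changes were S100a9 with 11.30, Cxcl5 with 8.56, Sprr2h with 7.55 and Lcn2 with 7.23. On the other side were Mptx1 with -10.00, Tgm3 with -6.12, Sycn with -5.85, the cytochrome P450 gene Cyp2c55 with -5.73 and the peroxisomal oxidase Hao2 with -4.62. Mptx1 read 12.39, 12.05 and 11.75 at 7 weeks, 3.63, 5.33 and 9.26 at 9 weeks and 12.12, 11.99 and 12.01 at 12 weeks in conventional knockouts. In SPF knockouts it read 12.36, 12.78 and 11.95 at 7 weeks, 11.47, 12.37 and 8.83 at 9 weeks and 3.39, 11.73 and 5.43 at 12 weeks. SPF replicate 2 of 12 weeks was far from its group at both genes. Without it 5494 genes were called, and without SPF replicate 1 of 9 weeks 1562. With only the 12 arrays compared in the fit, 26 genes were called, 20 positive and 6 negative.

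By list, all 13 neutrophil markers, 17 of 21 macrophage markers, 23 of 25 interferon gamma genes and 13 of 14 class I genes were called as more positive at 9 than at 12 weeks, beside 10.7% of all genes. Of the transport genes of colonocytes 18 of 29 were called as more negative, as were 18 of 33 xenobiotic genes, 10 of 15 smooth muscle markers and 13 of 23 fatty acid oxidation genes, beside 7.93% of all genes. Cell cycle genes, with no member at an unadjusted p under 0.05 at 9 weeks, had 17 of 29 called as more positive. The type I interferon list had 4 of 23 called as more positive, beside the 10.7% of all genes. The 3 contrasts share the 9-week arrays, so they are not independent of each other.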

How the data were processed

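RNA of full-thickness mouse colon was biotin-labelled and hybridized to Affymetrix arrays, 1 per sample. The design text says rat array, though the probe set names match a mouse one. Per the labels' design text the authors normalized with affyPLM, and what they deposited is a log2 level for each probe set. The affyPLM version and settings were not given in the sources used here. Arrays give no count depth, and their number limits the precision.

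Of 45101 probe sets, 64 controls, 932 with several symbols and 9160 with none were left out. The 34945 with 1 symbol gave 18193 genes, each represented by its brightest probe set over all 27 arrays (9010 genes had more than 1). Values were used as deposited. limma (3.58.1, R 4.3.3) fitted 9 group means with 18 residual degrees of freedom, and 3 contrasts were tested with eBayes, two-sided, with p-values adjusted by Benjamini-Hochberg over every gene tested and a call under 0.05. The method was also run on simulated data with an equal spread in all groups, which the arrays here did not have. That run therefore does not bear on their uneven spread. Python 3.11.15, pandas 2.3.3 and matplotlib 3.10.9 made tables and figures.

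The comparison and its 54 gene lists (915 of 999 entries measured) were chosen with earlier results of these data known. Named genes were, per list, up to 4 called or else the 2 members with the largest difference, the 5 largest per direction in the contrasts between ages, and Il10. Others are said to be chosen after their values were seen. Sequences and chromosomes are from RefSeq (GRCm38.p6). Replicate numbers did not pair the arrays, as same-numbered arrays correlated at -0.406, 0.079 and -0.438 in their deviations from the group means. Alternatives were a replicate block, other normalization, filters, probe set choices, variance models, arrays in the fit and leaving out each array.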

Additional observations from a re-analysis of the deposited data

Results flagged for a closer look

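The tests of the difference between ages are given here as values. The difference between conventional and SPF knockouts at 9 weeks was unlike that at 7 weeks in 17 genes and unlike that at 12 weeks in 3387 genes. At 9 against 7 weeks the changes of the difference were 6.45 for Dbp, 3.60 for Nr1d1, 3.47 for Nr1d2, 3.07 for Tef and 2.75 for Ciart, and -2.97 for Arntl, -2.65 for Cldn8, -2.54 for Cry1, -2.46 for Npas2 and -2.04 for Nfil3. At 9 against 12 weeks they were 11.66 for S100a8, 11.30 for S100a9, 8.56 for Cxcl5, 7.55 for Sprr2h and 7.23 for Lcn2, and -10.00 for Mptx1, -6.12 for Tgm3, -5.85 for Sycn, -5.73 for Cyp2c55 and -4.62 for Hao2. All are on the log2 scale from the limma model of all arrays. No cause was tested.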

How the results depend on the processing

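At 9 weeks 0 genes were called, and 0 to 185 when each array was left out in turn, with 2 for every probe set as its own feature and 3681 with array weights. Of the 18 genes called without SPF replicate 3 of 9 weeks and the 185 called without SPF replicate 2 of 12 weeks, 14 were shared, and all of both sets were called with array weights. The 17 genes that differed between 9 and 7 weeks became 12 to 56 when an array was left out, 31 for every probe set and 1456 with array weights. The 3387 between 9 and 12 weeks became 1562 to 5494, 5390 for every probe set, 7903 with array weights, 26 with only the arrays compared and 1478 with a minimum difference of 1. With the replicate number as a replicate block the counts were 0, 14 and 2987. The cause was not tested. For single genes, 5293 values gave 18 of opposite sign. With array weights these were Adipoq 1.54, Alas2 -0.003, Fcmr 0.245, Mzb1 -0.076, Retn 0.205 and Scd1 0.330. With 1 array of 9 weeks left out, the genes that changed sign ranged from -1.474 to 0.006 for Acaa1b, -1.631 to 0.984 for Adipoq, -0.169 to 0.337 for Alas2, -1.926 to 0.206 for Cyp2c55, -0.888 to 0.102 for Retn, -0.15 to 0.031 for Slc4a1, -1.248 to 0.061 for Sult1a1 and -0.106 to 0.172 for Tns4. Of 148 named genes, 115 passed with array weights and 54 in some other setting. The median of 16 lists changed sign in at least 1 setting: eosinophils and mast cells (in 6), pancreatic acinar cells (in 4), adipocytes, skeletal muscle, erythroid cells, squamous epithelium, clock, B cells, smooth muscle and unfolded protein response (in 3 each), epithelial junctions, cell cycle and plasma cells (in 2 each), and enteroendocrine cells, fatty acid oxidation and antimicrobial defence (in 1 each). Of 58 named genes with several probe sets, 7 had one of the opposite sign.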
